A study of Mus musculus with 12 samples.

Results

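The genes described here are 10 mouse genes of antigen presentation to CD4 T cells and of the co-stimulation that goes with it, of 16145 genes listed in the files. They were chosen by name, as Cd74, H2-Aa, H2-Ab1, H2-Eb1, H2-DMa, H2-DMb1, Ciita, Cd80, Cd86 and Cd40, and all 10 are listed in every one of 12 libraries. The libraries hold RNA from macrophages derived from mouse bone marrow over 7 days of culture with M-CSF, the growth factor of macrophages. There were 4 groups of 3 libraries: wild-type cells with vehicle for 12 h, Irg1KO cells with vehicle for 12 h, wild-type cells with 120 µM 4-OI (4-octyl itaconate) for 15 h, and wild-type cells with 15 µM hemin for 12 h. Acod1, formerly called Irg1, encodes the enzyme that makes itaconate. 4-OI is a cell-permeable itaconate ester, and hemin is the iron(III) chloride form of heme. No vehicle group was kept for 15 h, so 4-OI and its longer time cannot be told apart. The labels name no interferon, microbial product or other stimulus, and no animals, so the p-values measure the spread between libraries, which may be technical.

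MHC class II molecules are pairs of an alpha and a beta chain that carry peptides to the cell surface, where CD4 T cells read them. The invariant chain, encoded by Cd74, fills the peptide groove of new class II molecules until H2-DM exchanges its last fragment for a peptide. CIITA, a co-activator, switches the genes on by docking onto factors bound at the X and Y boxes of their promoters, and in macrophages interferon gamma is its best known inducer. CD80 and CD86 bind CD28 on the T cell to give the second signal, and CD40 receives CD40 ligand from the T cell.

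The promoters of 3 members are printed because they hold letters of the X and Y boxes. RefSeq promoter windows (GRCm38.p6, a build other than that of the expression files) are described for 5 of the 10 members. The 250 bases before each start were searched on both strands. No window is described for the other members, and which of them had a window is not reported here. The X box was spelled GNAAC, then any 2 or 3 bases, then TGANG, and the Y box was spelled TGATTGG, and these spellings were set after looking at the promoters below. In the lines below the capitals mark the X box and then the Y box, and each sequence runs 5′ to 3′ on the strand of its gene.
H2-Aa: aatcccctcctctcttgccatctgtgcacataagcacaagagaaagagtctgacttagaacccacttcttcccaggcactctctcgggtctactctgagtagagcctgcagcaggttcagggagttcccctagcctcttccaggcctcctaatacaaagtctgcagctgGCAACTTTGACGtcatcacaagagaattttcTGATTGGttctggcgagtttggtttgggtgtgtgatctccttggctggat
H2-DMb1: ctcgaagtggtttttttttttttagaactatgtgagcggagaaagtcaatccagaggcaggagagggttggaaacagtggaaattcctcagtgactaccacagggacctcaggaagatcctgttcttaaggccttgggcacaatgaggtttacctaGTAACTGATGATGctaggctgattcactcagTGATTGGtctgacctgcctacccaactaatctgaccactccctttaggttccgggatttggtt
H2-Eb1: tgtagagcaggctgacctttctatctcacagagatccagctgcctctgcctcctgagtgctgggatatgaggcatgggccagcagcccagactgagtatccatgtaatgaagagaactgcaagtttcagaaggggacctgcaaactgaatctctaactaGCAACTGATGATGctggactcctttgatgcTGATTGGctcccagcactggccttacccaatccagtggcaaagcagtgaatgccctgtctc
The H2-Aa window is chr17:34287824-34288073 on the minus strand, and its boxes begin 81 and 50 bases before the start. H2-DMb1 lies at chr17:34152941-34153190 on the plus strand, with boxes 94 and 63 bases before the start. For H2-Eb1 the window is chr17:34305617-34305866 on the plus strand, with boxes 91 and 61 bases before the start. The bases between X and Y number 19, 18 and 17 in that order. Of 32851 promoter windows of the same length, 1.49% held the X spelling, 7.23% held the Y spelling, and 9 windows (0.0274%) held X followed by Y with a gap of up to 30 bases. Besides these 3 members the 9 were H2-Ob, another class II gene, and 1700048F04Rik, BC051142, Capsl, Hnrnph2 and Tmc3, so 5 of the 9 are not class II genes. Neither spelling was found in the windows of H2-DMa and Cd80. The H2-DMa windows were chr17:34122582-34122831 and chr17:34125268-34125517, and no other start of that gene was searched. Because the spellings were set after looking at these 3 promoters, their match was fixed in advance. The shares of all windows and the lack of a match in H2-DMa and Cd80 describe these spellings only. A match of letters is a description and was not tested for binding.

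Library totals ran from 9405112 to 22390882 expected counts. The fit tested 12148 genes, 9 of the 10 members among them, and H2-Eb1 fell short of its low-count filter. All 12 macrophage markers were present in all libraries, with a summed level of 26470 to 29770 CPM (counts relative to the TMM-scaled library total) that was mostly Lyz2, at group means of 16780 to 19480 CPM. The defining B cell gene Pax5 and the T cell genes Cd3e and Cd3g had 0 counts in all 12 libraries, as did the dendritic cell genes Cd209a and Siglech, while Flt3 and Ccr7 reached at most 1 count. Other genes of the same lists were present in every library. Of the T cell list Cd247 reached 161 counts, and of the B cell list Cd22 reached 394 and Ebf1 274. Of the dendritic cell list Itgax reached 659 counts, Clec10a 176 and Batf3 55. The T cell gene Lck reached 9 counts and was at 0 in 1 library. In the libraries labelled Irg1KO, Acod1 had 300, 240 and 333 expected counts, against 462, 705 and 286 in wild-type vehicle. That difference did not pass the test (log2 fold change -0.48, SE 0.263, edgeR adjusted p = 0.194), and 4 of 17 alternatives passed as lower: the fit without a filter (-0.50, adjusted p = 4.38e-09) and the limma fits on FPKM (-0.71 to -0.79, adjusted p = 0.0194 to 0.0265). Over all 17 the value ran from -0.79 to -0.23. The vehicle groups of both genotypes overlapped, and which part of the gene was removed is not given in the sources used here.

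Per length of transcript, the members spanned a wide range in resting cells. In wild-type vehicle, H2-DMb1 stood at 30.6 ± 2.4 FPKM (SD, n = 3) and Cd74 at 29.5 ± 1.4 FPKM, a pair of levels that did not differ beyond their spread. Cd40 followed at 12.8 ± 1.5 FPKM, with H2-DMa at 10.8 ± 1.1 and Cd80 at 7.25 ± 0.84 FPKM. The alpha and beta chains were lower, with H2-Ab1 at 3.50 ± 0.32, H2-Aa at 1.97 ± 0.35 and H2-Eb1 at 0.36 ± 0.25 FPKM. Cd86 was at 1.93 ± 0.18 FPKM, within the spread of H2-Aa, and Ciita was lowest at 0.26 ± 0.056 FPKM, within the spread of H2-Eb1. Among 14980 genes listed in wild-type vehicle, Cd74 ranked at the 82.2 percentile and Ciita at the 22.3 percentile.

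**Figure D1:**
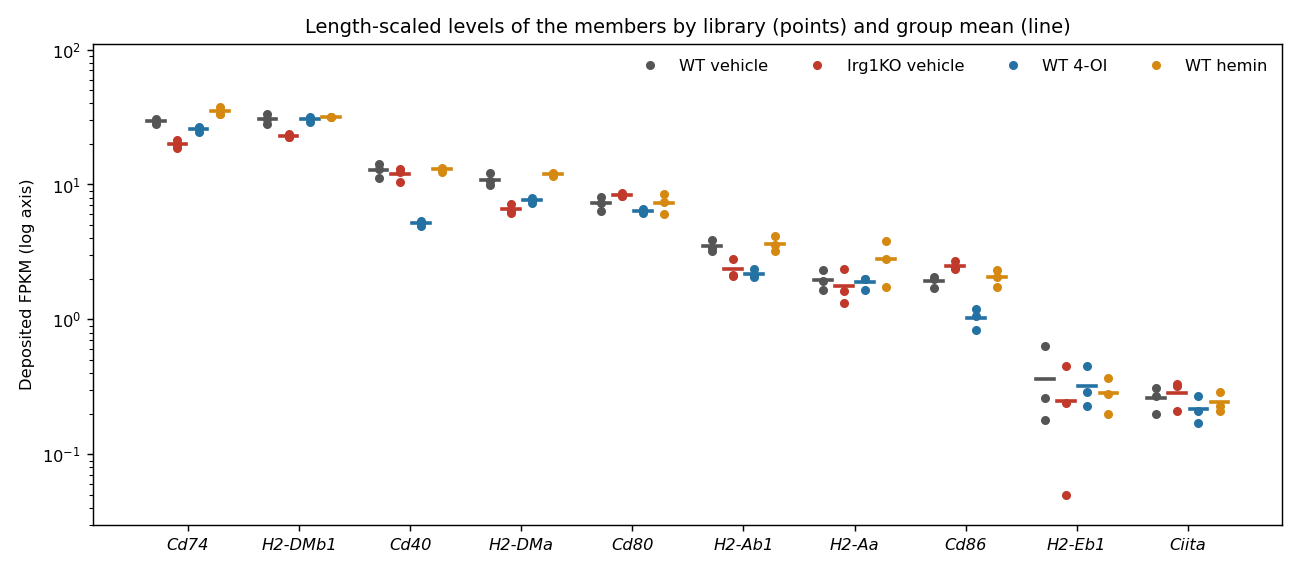
FPKM of the 10 members on a log axis, with 1 point per library and the mean of each of the 4 groups. H2-DMb1 and Cd74 lie near 30 FPKM in wild-type vehicle, while H2-Eb1 and Ciita lie below 1 FPKM.

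The invariant chain and the class II chains come first. Cd74 was lower in Irg1KO cells and higher with hemin than in wild-type vehicle. Its levels were 33.1, 31.2 and 33.7 CPM in wild-type vehicle and 22.3, 21.0 and 24.1 CPM in Irg1KO. With 4-OI they were 32.8, 31.6 and 29.7 CPM, and with hemin 43.4, 38.0 and 38.8 CPM. All Irg1KO libraries lay below and all hemin libraries above the wild-type vehicle libraries, whereas 4-OI overlapped them. Cd74 fell by 0.54 on the log2 scale in Irg1KO (SE 0.0765, edgeR adjusted p = 2.96e-07) and rose by 0.29 with hemin (SE 0.0729, adjusted p = 0.00356). The 4-OI difference was -0.05 (95% interval -0.2 to 0.104, adjusted p = 0.625). It passed as lower in 4 of 17 alternatives, at -0.19 with library totals alone (adjusted p = 0.0359) and at -0.19 in the 3 FPKM fits (0.0207 to 0.0399).

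H2-Ab1, the beta chain of the A molecule, was lower in both Irg1KO and 4-OI. It stood at 3.34, 3.50 and 3.94 CPM in wild-type vehicle, 2.24, 2.21 and 2.92 in Irg1KO, 2.38, 2.35 and 2.68 with 4-OI, and 3.82, 4.43 and 3.44 CPM with hemin. Neither Irg1KO nor 4-OI overlapped wild-type vehicle. H2-Ab1 fell by 0.55 on the log2 scale in Irg1KO (SE 0.193, edgeR adjusted p = 0.022) and by 0.54 with 4-OI (SE 0.2, adjusted p = 0.0236). Its counts were 25 to 81 per library, and the calls were not firm. The Irg1KO call was lost with DESeq2 (adjusted p = 0.0703) and without wild-type vehicle replicate 3 (0.061), Irg1KO replicate 1 (0.0752) or Irg1KO replicate 2 (0.0989). The 4-OI call was lost with DESeq2 (adjusted p = 0.0979) and without 4-OI replicate 1 (0.0661), 4-OI replicate 2 (0.0819) or wild-type vehicle replicate 3 (0.0656). With hemin the H2-Ab1 difference was 0.13 (95% interval -0.24 to 0.504, adjusted p = 0.698).

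H2-Aa, the alpha chain that pairs with H2-Ab1, had 18 to 43 counts per library and passed in no comparison with wild-type vehicle. Its levels were 2.27, 1.86 and 1.57 CPM in wild-type vehicle, 1.59, 1.31 and 2.29 in Irg1KO, 2.15, 1.75 and 2.15 with 4-OI, and 3.82, 2.80 and 1.76 CPM with hemin. All 4 groups overlapped. The 95% interval of the Irg1KO difference, -0.735 to 0.362 on the log2 scale, includes the H2-Ab1 value. H2-Eb1, the beta chain of the E molecule, had 16, 9 and 3 counts in wild-type vehicle, 5, 12 and 1 in Irg1KO, 5, 7 and 7 with 4-OI, and 3, 6 and 8 with hemin. At this depth no difference in H2-Eb1 was detectable; in a fit without the filter its adjusted p was 0.546, 0.948 and 0.892 for Irg1KO, 4-OI and hemin.

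The loading factor H2-DM is a pair of H2-DMa and H2-DMb1 chains, and both were lower in Irg1KO. H2-DMa was at 16.6, 18.9 and 15.2 CPM in wild-type vehicle, 10.1, 10.3 and 11.5 in Irg1KO, 14.3, 12.5 and 13.6 with 4-OI, and 19.6, 20.0 and 19.9 CPM with hemin. No treated or knockout group overlapped wild-type vehicle. H2-DMa fell by 0.69 on the log2 scale in Irg1KO (SE 0.101, edgeR adjusted p = 4.43e-07) and by 0.35 with 4-OI (SE 0.0997, adjusted p = 0.00358). The 4-OI call was lost without wild-type vehicle replicate 2 (-0.25, adjusted p = 0.0641). With hemin the H2-DMa difference was 0.21 (95% interval 0.022 to 0.404, adjusted p = 0.122), and without that same library it was 0.31 and passed (adjusted p = 0.0386).

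H2-DMb1 was at 31.6, 34.4 and 36.7 CPM in wild-type vehicle and 25.6, 25.7 and 27.0 CPM in Irg1KO. With 4-OI it was at 35.9, 39.1 and 38.8 CPM and with hemin at 36.7, 36.9 and 36.9 CPM. The Irg1KO libraries lay below all others. H2-DMb1 fell by 0.39 on the log2 scale in Irg1KO (SE 0.0718, edgeR adjusted p = 2.96e-05). Its 4-OI difference was 0.15 (SE 0.0701, adjusted p = 0.0682), the opposite sign to H2-DMa, and it passed with RLE factors (adjusted p = 0.0475) and without 4-OI replicate 1 (0.0423) or wild-type vehicle replicate 3 (0.0308). H2-DMb1 shares reads with its near copy H2-DMb2. Their summed counts were whole numbers in all 12 libraries, H2-DMb1 alone in 1, and H2-DMb2 made up 1.37% to 4.4% of the sum.

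Ciita, the co-activator, did not pass the test in any comparison. It had 18 to 48 counts per library, at 2.62, 1.69 and 2.27 CPM in wild-type vehicle, 2.82, 2.73 and 1.82 in Irg1KO, 1.61, 2.48 and 1.93 with 4-OI, and 2.55, 1.85 and 2.05 CPM with hemin. All groups overlapped. The 95% intervals against wild-type vehicle were -0.268 to 0.686 for Irg1KO, -0.591 to 0.435 for 4-OI and -0.536 to 0.488 for hemin, so a change of the size seen for Cd74 in Irg1KO lies outside the first interval and inside the second.

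Among the co-stimulators, Cd40 was lower with 4-OI than in each of the other groups. It was at 21.2, 19.9 and 16.6 CPM in wild-type vehicle, 19.9, 16.0 and 18.95 in Irg1KO, 8.67, 8.80 and 8.16 with 4-OI, and 20.8, 19.5 and 20.8 CPM with hemin. The highest 4-OI library lay below every other library. Cd40 fell by 1.18 on the log2 scale with 4-OI (SE 0.11, edgeR adjusted p = 1.61e-11), to 0.442 of wild-type vehicle. In Irg1KO the difference was -0.10 (95% interval -0.288 to 0.096) and with hemin 0.07 (-0.129 to 0.259).

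Cd86 was also lower with 4-OI. It was at 4.71, 4.84 and 4.02 CPM in wild-type vehicle, 5.71, 5.68 and 6.48 in Irg1KO, 2.15, 2.82 and 2.36 with 4-OI, and 5.73, 4.28 and 4.98 CPM with hemin. The 4-OI libraries lay below and the Irg1KO libraries above all wild-type vehicle libraries. Cd86 fell by 0.89 on the log2 scale with 4-OI (SE 0.185, edgeR adjusted p = 0.000107). The Irg1KO difference of 0.37 missed the threshold (SE 0.152, adjusted p = 0.0502) and passed with limma on log2(FPKM + 1) (adjusted p = 0.0463). With hemin it was 0.10 (95% interval -0.225 to 0.433).

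Cd80, the other CD28 ligand, was higher in Irg1KO. Levels were 14.7, 12.1 and 14.1 CPM in wild-type vehicle, 17.2, 16.0 and 16.0 in Irg1KO, 12.5, 13.6 and 14.1 with 4-OI, and 18.1, 13.1 and 14.6 CPM with hemin. The Irg1KO libraries lay above wild-type vehicle, and the other groups overlapped it. Cd80 rose by 0.28 on the log2 scale in Irg1KO (SE 0.104, edgeR adjusted p = 0.0305). That call was lost with library totals alone (adjusted p = 0.0589), DESeq2 (0.131) and the FPKM fits (0.134 to 0.189). It was also lost without wild-type vehicle replicate 2 (0.18, adjusted p = 0.235), Irg1KO replicate 1 (0.114) or Irg1KO replicate 2 (0.0527). With 4-OI the Cd80 difference was -0.01 (95% interval -0.238 to 0.21). The ratio of Cd80 to Cd86 FPKM was 5.48 to 7.37 in 4-OI libraries and 3.12 to 4.23 in wild-type vehicle, with no overlap.

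**Figure D2:**
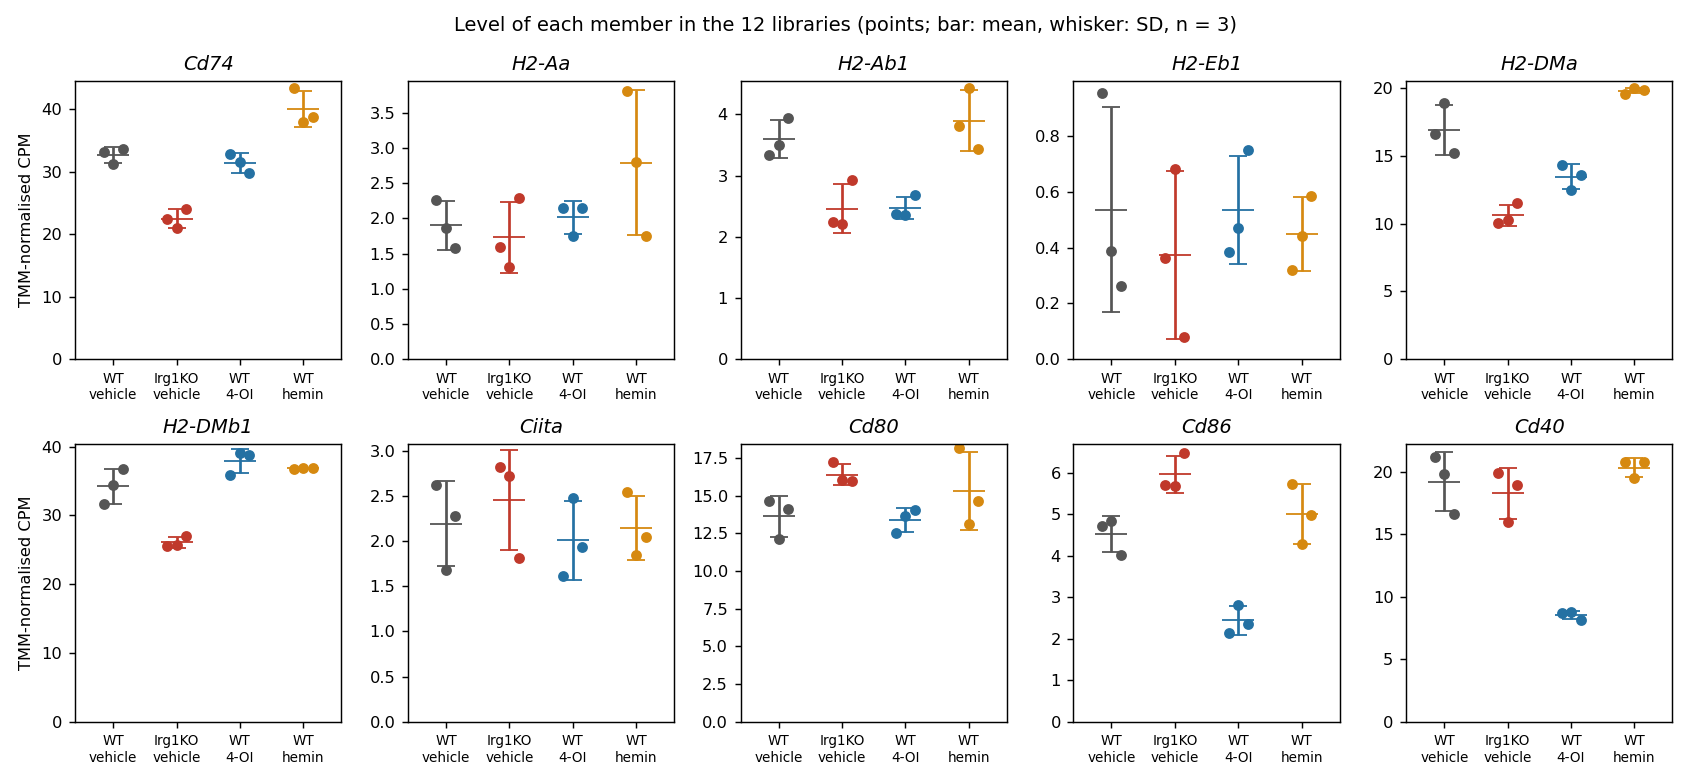
CPM of each of the 10 members in the 4 groups, with 1 point per library, the mean and the SD (n = 3). Cd40 and Cd86 are lowest in 4-OI, and Cd74, H2-DMa and H2-DMb1 are lowest in Irg1KO.

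Counted together, 5 of the 9 tested members were called in Irg1KO against wild-type vehicle, 1 higher and 4 lower, where 39.8% of all tested genes were called, 23.5% higher and 16.3% lower. The members' median log2 fold change was -0.19, beside -0.0003 for all genes. With 4-OI, 4 members were called, all lower, where 50.4% of all genes were called, 25.4% higher and 25% lower; the median was -0.078 beside -0.0031. With hemin 1 member was called, higher, where 17.2% of all genes were called, 9.48% higher and 7.74% lower; the median was 0.13 beside -0.0060. With 4-OI and hemin the share of members called is near that of all genes. In Irg1KO 5 of 9 stand beside 39.8%, and the number called ran from 3 to 5 over the alternatives. The number lower was 4 both in Irg1KO and with 4-OI. In no comparison is the count read as a result about the members. The 4 lower members in Irg1KO, Cd74, H2-Ab1, H2-DMa and H2-DMb1, belong to class II assembly or loading. So does H2-Aa, which did not pass, and the members were chosen by name to hold such genes. Of all called genes, the higher ones made up 59% in Irg1KO, 50.3% with 4-OI and 55.1% with hemin. With library totals alone they made up 49.8%, 28.4% and 29.6%, and the median of all genes moved to -0.14 with 4-OI. On that scaling Cd40 and Cd86 still passed as lower with 4-OI.

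**Figure D3:**
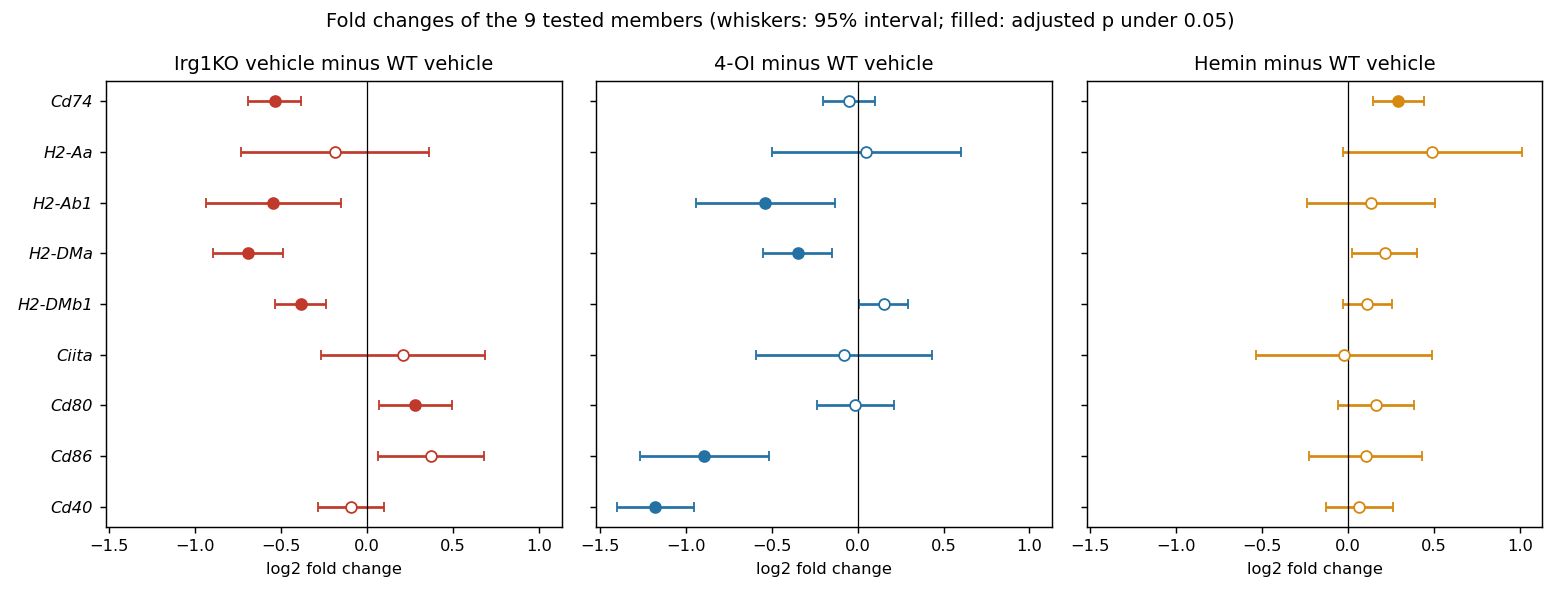
Log2 fold change of the 9 tested members against wild-type vehicle in Irg1KO, 4-OI and hemin, with 95% intervals; filled points passed at adjusted p under 0.05. Cd40 with 4-OI lies at -1.18, and Cd74 lies at -0.54 in Irg1KO and at 0.29 with hemin.

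Each pair of the other groups was also compared in the same fit. Comparisons with Irg1KO change genotype and agent together, and with 4-OI the hours too, so these cannot be told apart. Between 4-OI and hemin, 5 members were lower with 4-OI (42.3% of all genes were called, 20.6% higher and 21.7% lower), namely Cd40 (-1.24), Cd86 (-0.998), H2-Ab1 (-0.67), H2-DMa (-0.56) and Cd74 (-0.34), with edgeR adjusted p from 1.47e-11 to 0.00826. Doses and hours differ between these agents, so the values stand side by side. Between 4-OI and Irg1KO (57.7% called, 23.5% higher and 34.2% lower), Cd74 (0.49), H2-DMa (0.35) and H2-DMb1 (0.54) were higher with 4-OI, and Cd40 (-1.08), Cd86 (-1.26) and Cd80 (-0.29) were lower. The H2-DMa call was lost with library totals alone (adjusted p = 0.0534) and that of Cd80 with DESeq2 (0.112). Between hemin and Irg1KO (43.1% called, 19% higher and 24% lower), 5 members were higher with hemin: Cd74 (0.83), H2-DMa (0.91), H2-DMb1 (0.50), H2-Ab1 (0.68) and H2-Aa (0.68). The H2-Aa call (adjusted p = 0.041) was lost in 6 of 11 alternatives, with adjusted p of 0.0544 with library totals, 0.059 when those groups were fitted alone, 0.0978 with DESeq2 and 0.066 to 0.113 in the FPKM fits. Against wild-type vehicle only Cd74 of these 5 members passed with hemin, while all but H2-Aa passed as lower in Irg1KO.

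Markers of macrophages and of other cell types moved in some groups. Of all tested genes, 25.4% were higher and 25% lower with 4-OI. The shares were 23.5% and 16.3% in Irg1KO, and 9.48% and 7.74% with hemin. Of the 12 macrophage markers, 5 were lower and 3 higher with 4-OI, the condition in which Cd40 and Cd86 were lower. Mrc1, the mannose receptor gene, was at 483.8 ± 2.3 CPM with 4-OI against 1496 ± 33 in wild-type vehicle (-1.63, edgeR adjusted p = 1.2e-26), and C1qa (-0.95), Cd14 (-0.67), C1qb (-0.51) and Fcgr1 (-0.34) were also lower, while Cd63 (0.34), Itgam (0.25) and Lyz2 (0.22) were higher. In Irg1KO 3 were higher and 2 lower, and with hemin 3 were higher and 2 lower, among them Mrc1 (-0.58). Of 8 tested stromal genes, 8 were higher in Irg1KO, and their summed level was 10390 to 11660 CPM there against 1714 to 2111 in wild-type vehicle, while Dcn and Lum reached at most 9 and 4 counts. The B cell list summed to 36.1 to 39.2 CPM in Irg1KO and 18.2 to 21.1 in wild-type vehicle, with Ebf1 (2.17) and Cd22 (0.53) higher. Of the other tested genes of that list, Ighm was lower (-2.18, edgeR adjusted p = 0.00372) and Cd79b was at -0.32 (adjusted p = 0.407). The dendritic cell list summed to 48.5 to 54.9 CPM with 4-OI and 34.1 to 35.6 in wild-type vehicle, and most of that difference is Itgax, also a macrophage gene, at 40.5 against 22.8 CPM (0.83). Irf4 of the same list was lower (-1.97, edgeR adjusted p = 0.000154), and Zbtb46, Batf3 and Clec10a did not pass. In Irg1KO Zbtb46 was higher (1.73) and Batf3 lower (-0.83), both from low levels. The neutrophil list summed to 338.5 to 361.0 CPM with 4-OI and 83.9 to 94.4 in wild-type vehicle, with Ly6g at 0 in every library. Mmp8 made up 312.9 CPM of it with 4-OI, Mmp8 (1.97) and S100a8 (3.69) were higher, and S100a9, Ngp and Ltf did not pass. In Irg1KO the neutrophil list summed to 41.6 to 45.7 CPM, with Mmp8 (-1.13), S100a9 (-1.25) and Ngp (-1.19) lower and S100a8 (0.56) higher. The part of these genes in the members' differences was not tested. In bulk RNA, fewer cells of a type and less RNA per cell cannot be told apart.

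Genes of the same pathway were taken from lists. Their counts stand beside those of all tested genes. These were 23.5% higher and 16.3% lower in Irg1KO, 25.4% and 25% with 4-OI, and 9.48% and 7.74% with hemin. No count of a list is read as a result about its genes. With RLE factors, upper-quartile factors or library totals alone, no called gene of these lists changed sign, and the calls of named genes that were lost are given with them. Counts of some lists moved under these scalings, and some of those moves are given below. Among class II chains and loading, the 1 other gene tested, H2-DMb2, passed in no comparison with wild-type vehicle. Among 9 other tested genes of class II transcription, 2 were higher and 3 lower with 4-OI. Prdm1, whose product Blimp-1 represses Ciita in plasma cells, rose from 7.59 ± 0.83 to 23.1 ± 1.8 CPM (log2 fold change 1.59, edgeR adjusted p = 8.73e-15). Nfya, a Y box subunit, rose by 0.38, while Nfyb, its partner, fell by 0.58 and Creb1 fell by 0.17. Rfx5, an X box factor named after its value was seen, fell by 0.29. In Irg1KO, 1 was higher and 2 lower, with Zbtb46 at 1.73, Prdm1 at -0.53 and Nfya at -0.13. Zbtb46 had few reads, at 0.40 ± 0.12 CPM in wild-type vehicle and 1.30 ± 0.54 in Irg1KO. With hemin Prdm1 rose by 0.62 and Creb1 fell by 0.21.

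Antigen processing and turnover held 13 tested genes. With 4-OI 7 were higher and 2 lower, and with library totals 5 and 3. The lysosomal protease gene Lgmn fell by 0.51, while the tetraspanin genes Cd9 and Cd63 rose by 0.93 and 0.34, and Cst3, a cathepsin inhibitor, rose by 0.29. In Irg1KO 3 were higher and 1 lower: Ifi30, the lysosomal thiol reductase, fell by 0.35, and Cd63, Ctss and Ctsl rose by 0.30, 0.15 and 0.14. The Ctsl call in Irg1KO was lost under all 3 scalings (adjusted p = 0.0504 to 0.106), and with library totals 2 were higher and 3 lower. With hemin 2 were higher and 2 lower. Marchf1, a ubiquitin ligase that sends class II and CD86 to degradation, rose by 0.48, Sppl2a, which cuts the last CD74 fragment, rose by 0.16, and Ctsl and Marchf8 fell by 0.21 and 0.20. Marchf1 also rose with 4-OI, by 0.58 (edgeR adjusted p = 0.000275), a value named after it was seen. Its expected counts were whole numbers in no library. The Sppl2a call was lost with library totals (adjusted p = 0.172), where 1 was higher and 4 lower.

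Of 4 tested partners of CD74, Cd44 rose in all 3 comparisons, by 0.18 with 4-OI, 0.14 in Irg1KO and 0.19 with hemin. Cxcr4 fell by 0.70 with 4-OI and by 0.66 with hemin, and Mif, the ligand, rose by 0.20 with 4-OI. With library totals the 4-OI calls of Cd44 (0.04, adjusted p = 0.461) and Mif (0.066, adjusted p = 0.408) were lost. These comparisons share the wild-type vehicle libraries.

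Of the other B7 genes, 3 of 4 tested were higher with 4-OI and 1 was lower. Cd274, encoding PD-L1, rose from 15.0 ± 2.4 to 35.9 ± 3.8 CPM (log2 fold change 1.22, edgeR adjusted p = 3.25e-11), Cd276 rose by 0.72 and Vsir, encoding VISTA, rose by 0.45, while Icosl, the ligand of ICOS, fell by 0.49. With hemin Cd274 rose by 0.92, Cd276 by 0.37 and Vsir by 0.31. In Irg1KO Cd274 rose by 0.45, and Icosl and Vsir fell by 0.47 and 0.23.

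In the TNF superfamily list, 3 of 3 tested genes besides Cd40 were lower with 4-OI. Tnfrsf14 fell from 41.8 ± 2.7 to 25.2 ± 1.8 CPM (log2 fold change -0.74, edgeR adjusted p = 2.09e-10), Tnfsf9, encoding 4-1BB ligand, fell by 0.65, and Tnfsf15 fell by 1.62 from 0.45 CPM. With hemin Tnfsf9 fell by 0.51. In Irg1KO Tnfsf15 rose by 1.71 and Tnfrsf14 fell by 0.25. Of 9 genes of CD40 signalling, 5 were higher and 0 lower with hemin, beside 9.48% and 7.74% of all tested genes. Among the 5 were Birc3 (0.49), Relb (0.49), Traf3 (0.27) and Map3k14 (0.37). With 4-OI 2 were higher, Map3k14 (0.82) and Birc3 (0.39), and 3 lower, among them Nfkb2 (-0.41) and Relb (-0.60). In Irg1KO Nfkb2 rose by 0.34 and Traf6 fell by 0.31.

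Adhesion genes went both ways. Of 12 tested, 5 were higher and 4 lower with 4-OI, with Alcam (0.89), Slamf7 (0.70) and Ly9 (0.60) higher and Lgals9 (-0.81) lower. With library totals 5 were higher and 6 lower. Cd83, which opposes Marchf1 at the surface and was named after its value was seen, was at 1.42 CPM in wild-type vehicle and was lower with 4-OI (-2.26) and with hemin (-1.32). In Irg1KO 4 were higher and 2 lower, with Slamf7 (0.51), Nectin2 (0.42) and Pvr (0.23) higher and Icam2 (-0.73) lower. Under each of the 3 other scalings 3 were higher and 2 lower in Irg1KO. With hemin 3 were higher and 2 lower, with Icam1 (0.81), Pvr (0.28) and Ly9 (0.21) higher and Lgals9 (-0.20) lower.

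Of 20 tested interferon gamma genes, 12 were lower and 4 higher with 4-OI, where 25% of all tested genes were lower and 25.4% higher. Their median was -0.76 beside -0.0031 for all genes. With library totals 14 were lower and 3 higher. The GTPase gene Iigp1 fell from 33.0 ± 1.6 to 4.83 ± 0.76 CPM (log2 fold change -2.78, edgeR adjusted p = 8.6e-22). Gbp3, another GTPase gene, fell by 1.78, while Irf8 rose by 0.99. With hemin 7 were lower and 3 higher (median -0.097), with Iigp1 (-0.79) and Irgm1 (-0.51) lower and Irf8 (0.71) higher. With library totals the hemin counts were 8 lower and 1 higher. In Irg1KO 4 were lower and 2 higher (median -0.010), with Iigp1 (-0.70) and Cxcl10 (-0.69) lower and Gbp2 (0.69) and Irgm1 (0.24) higher. Of these, Cxcl10 (-3.74), Gbp2 (-1.53) and Irgm1 (-1.01) were all lower with 4-OI, values named after they were seen.

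**Figure D4:**
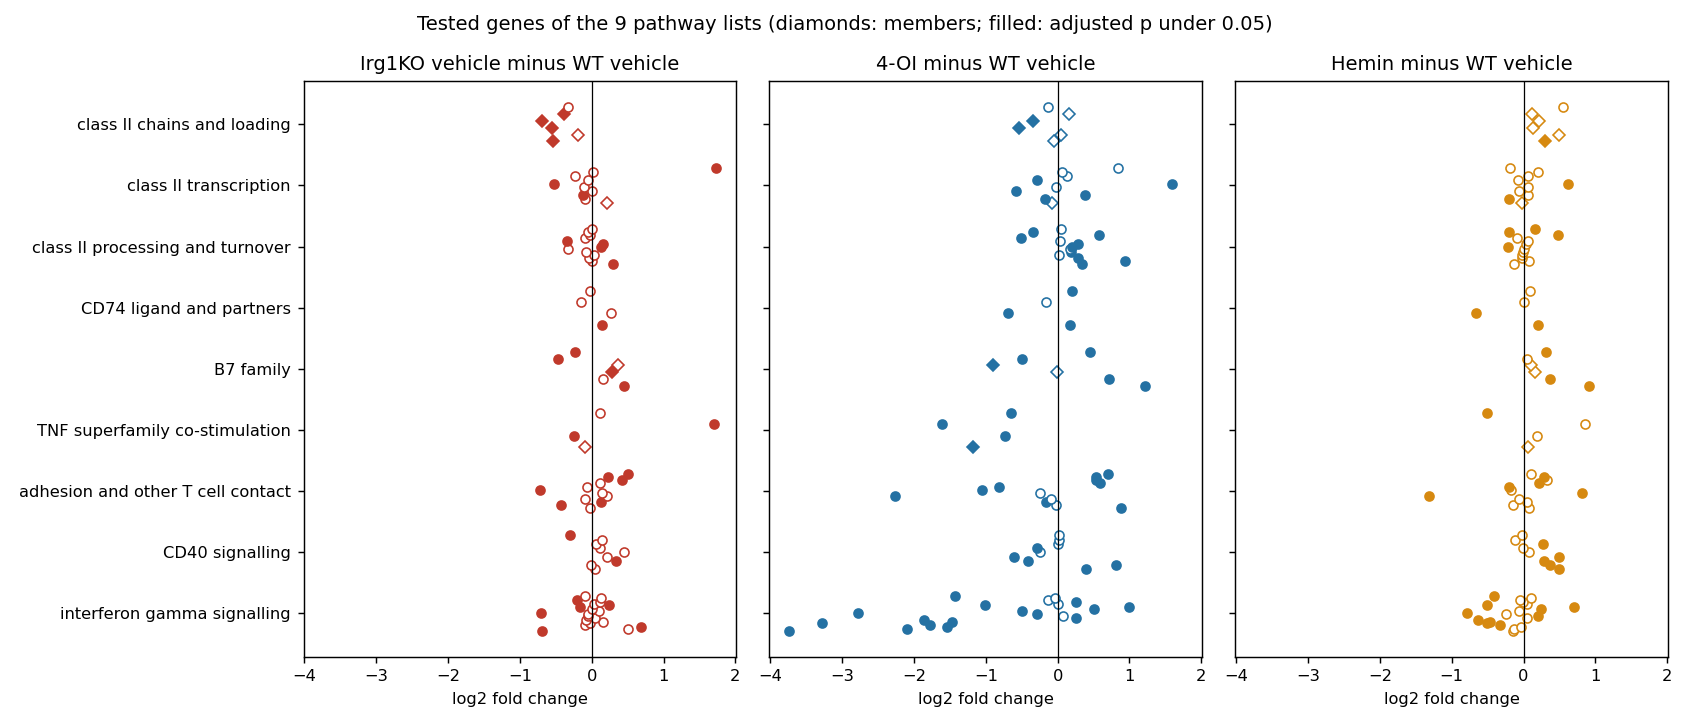
Log2 fold change against wild-type vehicle of every tested gene of the 9 pathway lists, in Irg1KO, 4-OI and hemin; diamonds are the members and filled symbols passed at adjusted p under 0.05. The interferon gamma genes with 4-OI have a median of -0.76.

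Genes with the most similar pattern over the 12 libraries were found among 9589 other genes by Pearson's r of log2(CPM + 1). For Cd74, H2-Aa, H2-Ab1 and H2-Eb1 the values of each gene were centred, divided by their SD and then averaged, so each gene weighs alike. The genes most like that mean were Dna2 (r = 0.939), Gpr183 (0.937), Rpn1 (0.929), Atp11b (0.924), Fmnl1 (0.921) and Tex2 (0.92). H2-Eb1, with 1 to 16 counts per library, had r of 0.058 with Cd74, -0.167 with H2-Aa and -0.139 with H2-Ab1. For Cd40 they were Cdc23 (0.983), Il21r (0.983) and Tm7sf3 (0.974), and for Cd86 Ptpro (0.977), Swap70 (0.968) and Nhsl2 (0.961). For Cd80 they were Ldah (0.876), Wdr92 (0.844) and Pak4 (0.841), and for Ciita Cntn5 (0.861), Luc7l3 (0.791) and Bbs7 (0.782). The libraries fall into 4 groups and share their scaling, so these values only describe likeness.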

How the data were processed

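RNA was sequenced from 12 libraries of macrophages grown from mouse bone marrow. The tools named in the submitters' processing notes are Bowtie2, HISAT2, RSEM and StringTie, and the genome is GRCm39 (mm39); their versions and roles are not given in the sources used here. Per the file headers, each library has deposited expected counts, which are estimated reads or fragments per gene, and deposited FPKM, which the authors scaled by transcript length and library total. Genes that a file does not list counted as 0. Expected counts were rounded to whole numbers and fitted for all 12 libraries together in edgeR 4.0.16 (R 4.3.3), with filterByExpr, TMM factors, 1 coefficient per group and robust quasi-likelihood F tests. In all, 12148 genes were tested, and p-values were adjusted over all of them by the Benjamini-Hochberg method. The standard error (SE) was obtained from the log2 fold change and F (its size over the root of F), and 95% intervals use the degrees of freedom of the test. The test was also run on simulated data with planted fold changes. The members, lists and tests were chosen with earlier results of these data known. From each list, up to 4 called genes per comparison were named in order of adjusted p; others named were chosen after their values were seen. Some genes that the rule selects are not reported here. Other settings were RLE or upper-quartile factors, library totals alone, no filter, a filter of 10 counts in 6 libraries, DESeq2 1.42.0, limma 3.58.1 on log2(FPKM + 1) or log2(FPKM + 0.1), the compared groups alone, a replicate block, and leaving out each library. The pathway lists were also counted under the 3 other scalings, a check added after the data were seen. Promoter windows came from RefSeq, GRCm38.p6, and served for sequence only. Tables and plots used Python 3.11.15, pandas 2.3.3 and matplotlib 3.10.9.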

Additional observations from a re-analysis of the deposited data

How the results depend on the processing

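Of 54 member results, 35 kept their direction and their side of the threshold in every alternative, 7 lost a call, 4 gained one and 8 changed sign. Members called in Irg1KO numbered 5, and 3 with DESeq2. Leaving out 1 library at a time gave 3 to 5 members in Irg1KO, 3 to 4 with 4-OI and 1 to 2 with hemin, and 4213 to 4586, 5393 to 5794 and 1537 to 2086 genes. Libraries were not left out in turn for the comparisons between 4-OI, hemin and Irg1KO. No value that changed sign passed the test, and the cause was not tested. For H2-Aa with 4-OI these values were -0.086 with library totals, -0.035 with log2(FPKM + 1) with or without the filter, -0.049 with log2(FPKM + 0.1), and -0.032 to 0.18 over the fits that leave out 1 library. Over such fits H2-Aa in Irg1KO ran from -0.42 to 0.0007, and with 4-OI Ciita ran from -0.29 to 0.095 and Cd80 from -0.11 to 0.0525. With hemin, Ciita ran from -0.23 to 0.15 and Cd40 from -0.0093 to 0.14. Between 4-OI and hemin H2-DMb1 was -0.033 with library totals, -0.040 with log2(FPKM + 1) with or without the filter and -0.041 with log2(FPKM + 0.1). Between 4-OI and Irg1KO H2-Ab1 was -0.017 with upper-quartile factors, -0.096 with library totals, -0.073 with log2(FPKM + 1) with or without the filter and -0.099 with log2(FPKM + 0.1). Each group's mean was subtracted from log2(CPM + 1) in every tested gene, and the deviations left were correlated between libraries of different groups. These deviations correlated at -0.0697 to 0.0854 over 18 same-numbered pairs, none above 0.1. Over 36 pairs of other numbers they ran from -0.0814 to 0.108, with 2 above 0.1. For 4 of 12 libraries the best match had their own number, so the numbers were not taken as pairs. With a replicate block 4879, 6156 and 2159 genes and 5, 4 and 1 members were called in Irg1KO, 4-OI and hemin. Low counts limit H2-Eb1, H2-Aa and Ciita.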

Other observations

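The mean transcript length that the files give for Cd86 was 2539 bases in all 3 wild-type vehicle libraries and 2539, 2326 and 2191 bases with 4-OI, where the gene had 28, 42 and 22 counts. For Cd80 it ran from 2000 to 2260 bases over the 12 libraries.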
